A study of Homo sapiens with 16 samples.

Results

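A set of 10 genes that encode subunits of the Polycomb repressive complexes were followed across engineered RWPE1 cells, a long-established, non-tumorigenic epithelial line from human prostate. The members were taken by gene symbol as a fixed set of 10 of the 20166 symbols in the table, and all 10 were measured: EZH2, EZH1, EED, SUZ12 and JARID2 of the complex PRC2, and RING1, RNF2, BMI1, CBX2 and CBX7 of PRC1. The rule names the genes and uses no measured value, but it was proposed with earlier results of these data known. The cells carried an empty vector (an altered pTRIPZ backbone, 6 libraries), a wild-type construct for over-expression (6 libraries) or its T164A mutant (4 libraries). No further treatment, time or dose is given, and nothing in the labels tells whether the libraries within a group are separate cultures or repeats of 1 engineered population. The p-values below therefore reflect the scatter among these libraries, which may be technical. Both comparisons with vector share its 6 libraries.

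Polycomb proteins keep developmental genes silent. PRC2 places methyl groups on H3K27 through EZH2 or its paralogue EZH1, which need EED and SUZ12 for activity, and JARID2 helps recruit the complex. PRC1 marks histone H2A with ubiquitin through RING1 or RNF2. BMI1 pairs with these ligases in canonical PRC1, where CBX proteins such as CBX2 and CBX7 read the H3K27 mark. In epithelium EZH2 is known to follow proliferation, and BMI1 is known for restraint of the CDKN2A locus.

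The promoters of 4 members are shown, because the results turn on how the paralogues EZH2 and EZH1 diverged and on the joint rise of RNF2 and BMI1 in the libraries labelled T164A. Of the 10 members, 9 matched the RefSeq promoter table (GRCh38.p14), which gives 250 bases before and 50 bases after each listed start; CBX2 is the member not matched. EZH2 and BMI1 each have 2 listed starts, and the one listed at the top is printed. The EZH2 window lies at chr7:148884242-148884541 on the minus strand, EZH1 at chr17:42744991-42745290 on the minus strand, RNF2 at chr1:185045308-185045607 on the plus strand and BMI1 at chr10:22320849-22321148 on the plus strand. Each sequence runs 5′ to 3′ on the gene's strand. Capitals mark letters matching an E2F motif (TTTCCCGC, TTTCGCGC, TTTGCCGC or TTTGGCGC) or an E-box (CACGTG), searched on both strands.
EZH2: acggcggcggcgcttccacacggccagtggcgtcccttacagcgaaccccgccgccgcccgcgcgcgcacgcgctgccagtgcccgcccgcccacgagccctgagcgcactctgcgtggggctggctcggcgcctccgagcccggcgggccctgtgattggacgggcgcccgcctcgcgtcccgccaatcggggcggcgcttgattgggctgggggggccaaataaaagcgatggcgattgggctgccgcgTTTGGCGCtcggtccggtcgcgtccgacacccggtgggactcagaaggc
EZH1: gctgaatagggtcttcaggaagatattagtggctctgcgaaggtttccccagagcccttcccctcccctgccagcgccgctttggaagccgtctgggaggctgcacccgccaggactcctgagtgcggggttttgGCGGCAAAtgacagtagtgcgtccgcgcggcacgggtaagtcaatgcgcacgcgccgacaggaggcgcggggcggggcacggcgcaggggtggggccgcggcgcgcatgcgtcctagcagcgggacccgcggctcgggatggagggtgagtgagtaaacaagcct
RNF2: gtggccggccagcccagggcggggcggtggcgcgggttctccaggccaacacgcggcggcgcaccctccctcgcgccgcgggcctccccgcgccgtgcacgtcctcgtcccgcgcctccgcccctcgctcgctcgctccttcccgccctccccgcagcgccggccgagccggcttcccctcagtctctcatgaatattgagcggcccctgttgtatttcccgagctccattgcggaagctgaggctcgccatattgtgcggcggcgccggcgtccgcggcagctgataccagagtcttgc
BMI1: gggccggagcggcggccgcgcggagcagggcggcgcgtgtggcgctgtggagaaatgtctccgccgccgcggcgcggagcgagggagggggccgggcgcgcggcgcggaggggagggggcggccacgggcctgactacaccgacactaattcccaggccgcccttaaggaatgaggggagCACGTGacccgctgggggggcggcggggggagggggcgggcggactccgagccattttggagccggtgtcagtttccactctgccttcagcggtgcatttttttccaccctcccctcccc

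An E2F motif match stood at the printed start of EZH2 (offset 1) and at offset -115 in EZH1, and SUZ12, whose sequence is not shown, held a match at offset -189. Such a match was present in 3.30% of the 34943 promoters in the table. RNF2 and BMI1 held no E2F match in these windows. The printed BMI1 window held the E-box, which 7.23% of promoters hold. A GC box (GGGCGG, both strands) was found 4 times in EZH2, 1 time in EZH1, 4 times in RNF2 and 6 times in BMI1, and 44.9% of promoters hold at least 1. EZH2 also held 4 matches to CCAAT, a motif found in 34.6% of promoters. At their other listed starts, which are not printed, EZH2 held 0 E2F and 0 CCAAT matches with 1 GC box, and BMI1 held 0 E-boxes with 5 GC boxes. These matches describe the letters in the windows and not binding in these cells.

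The table holds log2 values that behave as reads divided by a size factor, and the estimated depth was 12300000 to 19200000 reads per library, so members with values of 7.57 to 11.25 lay far above 2.30, the level of 3 reads. The basal epithelial markers fixed for RWPE1 were expressed in all groups, with summed levels (2 raised to the deposited value, added over the list) of 276215 to 326357 in vector, 174511 to 239499 in wild type and 149913 to 170686 in T164A, none of 15 below the level of 3 reads in any group. Prostate luminal markers summed to 1437 to 2524 in vector, 55224 to 113190 in wild type and 3731 to 4004 in T164A, with KLK3 and KLK2 below the level of 3 reads in vector and T164A, and TMPRSS2 also in T164A. Squamous markers summed to 122166 to 139489, 66960 to 91438 and 3110 to 3926 in the same order, and neural or embryonic markers to 841 to 1005, 1515 to 2317 and 21360 to 22884. Of the defining neural or embryonic markers, IRS4, PRAME and DPYSL5 were below that level in vector and IRS4 in wild type. Stroma, endothelium and leukocyte markers summed to 2077 to 2877, 1515 to 1889 and 860 to 1194, with PTPRC below that level in wild type and T164A. That sum is mostly COL1A1 and CD68, which were lower in both engineered groups, while VWF was 3.02 higher in wild type than in vector and COL3A1 and LUM rose by at least 4.45 and 2.53 in T164A; these markers were named after their values were seen. Against vector, wild type was higher for 13 of 13 luminal markers (limma). It was higher for 5 of 14 neural or embryonic markers and lower for 2 (limma). Lower calls covered 14 of 15 basal and 11 of 11 squamous markers, with 1 basal marker higher (limma). Of all symbols 21.0% were higher and 24.5% lower in wild type against vector. T164A was lower than vector for 11 of 15 basal, 11 of 11 squamous and 4 of 13 luminal markers (limma). It was higher for 12 of 14 neural or embryonic, 6 of 13 luminal and 2 of 15 basal ones (limma). The neural or embryonic marker ENO2 was lower (limma). Of all symbols 37.1% were higher and 27.2% lower in T164A against vector. The lower calls of KLK3 and MSMB and the higher call of ELAVL4 had both groups below the level of 3 reads, where genes cannot be ranked. In bulk RNA, fewer cells of a type and less RNA per cell cannot be told apart. The part that these shifts in identity play in the Polycomb results was not tested. T164A library 93 often stood apart from the other T164A libraries, and wild-type library 14 had the lowest luminal sum of its group (55224, against 87242 to 113190 in the rest).

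Across all members, the libraries labelled T164A stood out by 3 large rises, in CBX2, RNF2 and BMI1, while the wild-type construct went with small shifts, lower for most PRC2 genes and RING1 and higher for CBX2 and CBX7. In wild type against vector, limma at an adjusted p threshold of 0.05 called 2 members higher and 5 lower. Among all symbols 21.0% were called higher and 24.5% lower. Among the 11167 symbols with a mean of 6 or more, a level that every member reached, 27.6% were higher and 38.7% lower, so the members' counts were near the background. The median difference of the members was -0.17 on the log2 scale, beside -0.05 for all symbols and -0.07 for those with a mean of 6 or more. In T164A against vector, 4 members were called higher and 2 lower, beside 37.1% higher and 27.2% lower of all symbols, or 47.2% and 36.6% of those with a mean of 6 or more. The members' median was 0.12, beside 0.11 for all symbols and 0.11 for those with a mean of 6 or more. In wild type against T164A, 1 member was higher and 6 lower, beside 26.7% and 35.1% of all symbols, or 33.8% and 46.1% of those with a mean of 6 or more, with a members' median of -0.36, beside -0.08 and -0.12. Called changes of at least 2-fold were found for 3 of 10 members in T164A against vector, all higher, where 20.1% of all symbols and 17.9% of those with a mean of 6 or more passed the same rule.

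When all 20166 symbols were quantile normalized, the median of symbols with a mean of 6 or more moved by -0.17 in T164A against vector. In wild type against T164A it moved by 0.14. Differences below are best read beside these shifts, which are medians. Single members moved by more or by less, as the values for CBX7 and EZH2 below show. The 7487 higher and 5490 lower symbols of T164A against vector became 6201 higher and 6940 lower. Differences of CBX2, RNF2 and BMI1 in T164A against vector were over 1 log2 unit, far above this shift, whereas those of the PRC2 genes, -0.32 to 0.18, were nearer to it. When limma instead required evidence for a change beyond 1.2-fold, the calls left were CBX2 in wild type against vector, the same gene with RNF2 and BMI1 in T164A against vector, and these genes with EZH2 and CBX7 between wild type and T164A.

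**Figure D1:**
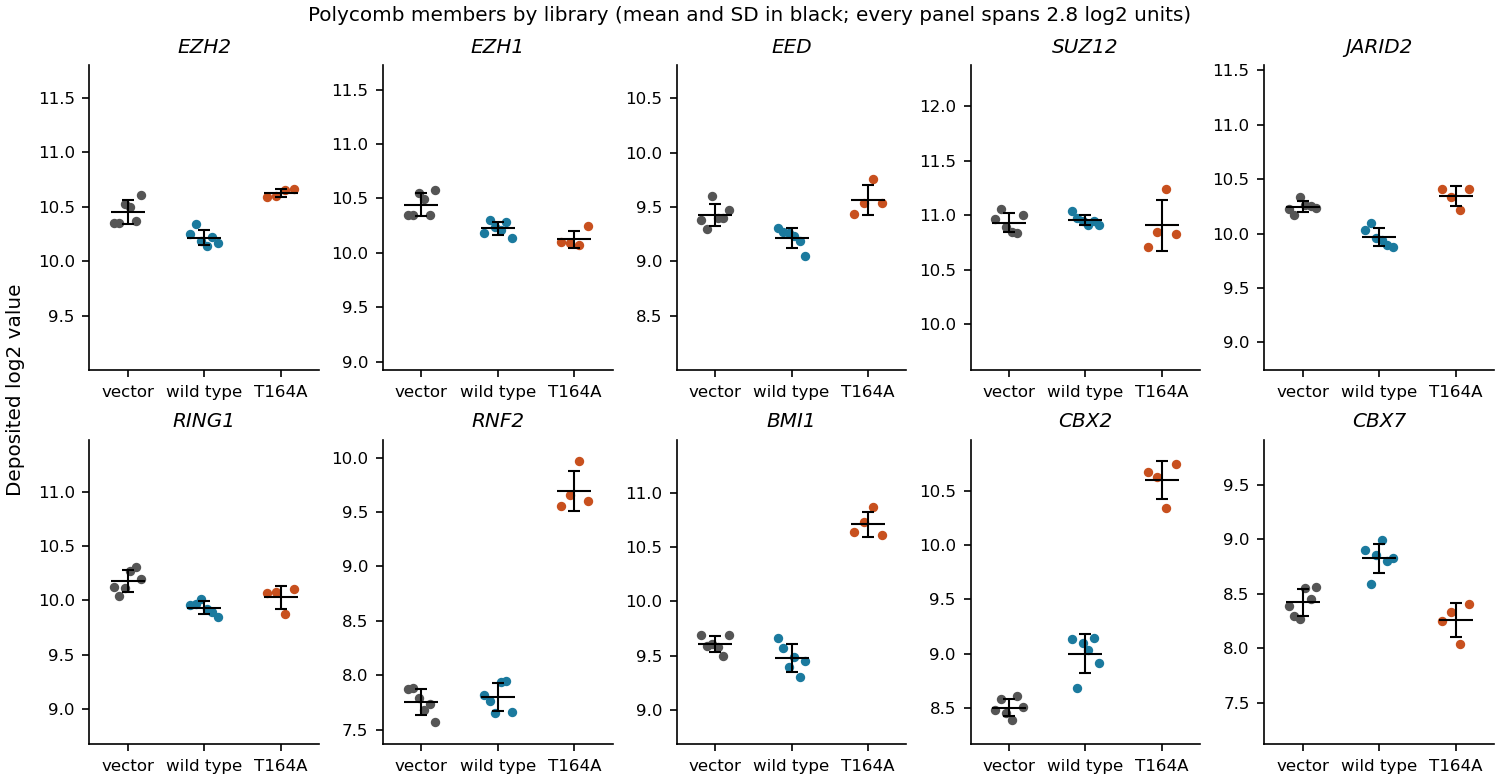
Deposited log2 value of each member by library (points) in vector (n = 6), wild type (n = 6) and T164A (n = 4), with the mean and SD in black. RNF2, BMI1 and CBX2 in T164A lie above every library of the other groups, while SUZ12 overlaps in all 3.

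EZH2, the main H3K27 methyltransferase of dividing cells, was modestly lower with the wild-type construct and modestly higher in T164A. It lies on chromosome 7 (148807383 to 148884321, GRCh38, minus strand). Its log2 value ran from 10.35 through a median of 10.43 to 10.61 in vector and from 10.14 through 10.20 to 10.34 in wild type, and was 10.59, 10.60, 10.65 and 10.66 in T164A libraries 91, 92, 93 and 94. Wild type lay below every vector library, and T164A lay above all but the highest vector library. Wild type fell by 0.23 against vector (SE 0.05, limma adjusted p = 0.000789), a 1.18-fold lower level. T164A was 0.18 higher than vector (SE 0.06, limma adjusted p = 0.0127). That T164A difference lost its call after quantile normalization (0.12, limma adjusted p = 0.0908) and when close libraries were averaged (limma adjusted p = 0.119). Wild type against T164A differed by -0.41 (SE 0.06, limma adjusted p = 1.37e-06), a call kept in all 24 alternative settings.

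EZH1, the paralogue with weaker methyltransferase activity that prevails in resting cells, was lower in both engineered groups. The gene lies on chromosome 17 (42700275 to 42745049, GRCh38, minus strand). EZH1 ran from 10.34 through a median of 10.42 to 10.57 in vector and from 10.14 through 10.22 to 10.30 in wild type, and was 10.10, 10.09, 10.07 and 10.24 in the T164A libraries, so neither group reached the vector range. Wild type fell by 0.22 against vector (SE 0.06, limma adjusted p = 0.00184) and T164A fell by 0.32 (SE 0.06, limma adjusted p = 6.08e-05). Wild type and T164A were 0.10 apart, with a 95% interval of -0.03 to 0.22 (limma adjusted p = 0.178). After quantile normalization that difference was 0.24 and passed (limma adjusted p = 0.00171).

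Within each library, EZH2 minus EZH1 was near 0 in vector and wild type and positive in T164A. In vector it ran from -0.02 through a median of 0.01 to 0.04 (mean 0.01 ± 0.02, SD, n = 6), and both genes were high together in vector libraries 3, 4 and 6 (10.49 to 10.57 for EZH1 and 10.49 to 10.61 for EZH2) and low together in libraries 1, 2 and 5 (10.34 to 10.35 and 10.35 to 10.37). In wild type the difference ran from -0.07 through -0.01 to 0.07 (mean -0.01 ± 0.06, SD, n = 6). In T164A it was 0.49, 0.51, 0.58 and 0.42 (mean 0.50 ± 0.07, SD, n = 4), and these libraries did not overlap with the rest. This difference of log2 values without length correction compares libraries and not the genes with each other. It is given as a description without a test.

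EED, the subunit that binds methylated H3K27 and stimulates the enzyme, moved in the same direction as EZH2 in wild type. Its log2 value ran from 9.30 through a median of 9.40 to 9.61 in vector and from 9.05 through 9.25 to 9.31 in wild type, and was 9.43, 9.54, 9.76 and 9.54 in T164A. Wild type overlapped vector by its top library. EED fell by 0.21 in wild type (SE 0.06, limma adjusted p = 0.0101). T164A minus vector was 0.14, with a 95% interval of -0.01 to 0.29 (limma adjusted p = 0.0929), and it passed without vector library 3 or without T164A library 91 (lowest limma adjusted p = 0.0354). Wild type was 0.35 below T164A (a difference of -0.35, SE 0.07, limma adjusted p = 0.000145), and these groups did not overlap.

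SUZ12, the scaffold of PRC2, gave no called difference in any comparison. Values ran from 10.83 through a median of 10.93 to 11.05 in vector and from 10.91 through 10.95 to 11.04 in wild type. In T164A they were 10.71, 10.85, 11.25 and 10.83, so library 93 alone lay above the range of every other group. The wild-type difference from vector was 0.02 (95% interval -0.12 to 0.16, limma adjusted p = 0.829) and the T164A difference was -0.02 (95% interval -0.18 to 0.13, limma adjusted p = 0.803). Without T164A library 93, the T164A difference was -0.14 (limma adjusted p = 0.0384) and wild type against T164A was 0.16 (limma adjusted p = 0.0174), so the result for this gene rests on that library.

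JARID2, a cofactor that brings PRC2 to its targets, was lower in wild type than in either other group. It ran from 10.17 through a median of 10.25 to 10.33 in vector and from 9.88 through 9.95 to 10.10 in wild type, and was 10.41, 10.33, 10.22 and 10.41 in T164A. Wild type lay below all other libraries. The difference from vector was -0.28 (SE 0.05, limma adjusted p = 7.78e-05) and that from T164A was -0.38 (SE 0.06, limma adjusted p = 3.35e-06). T164A minus vector was 0.09 (95% interval -0.03 to 0.22, limma adjusted p = 0.169), and 0.14 without T164A library 93 (limma adjusted p = 0.0409). For EZH1, EZH2, EED and JARID2 in wild type, the calls did not hold when close libraries were averaged before the fit (limma adjusted p = 0.391, 0.394, 0.389 and 0.188). Under the same averaging the JARID2 difference between wild type and T164A was -0.28 and did not pass (limma adjusted p = 0.0655).

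**Figure D2:**
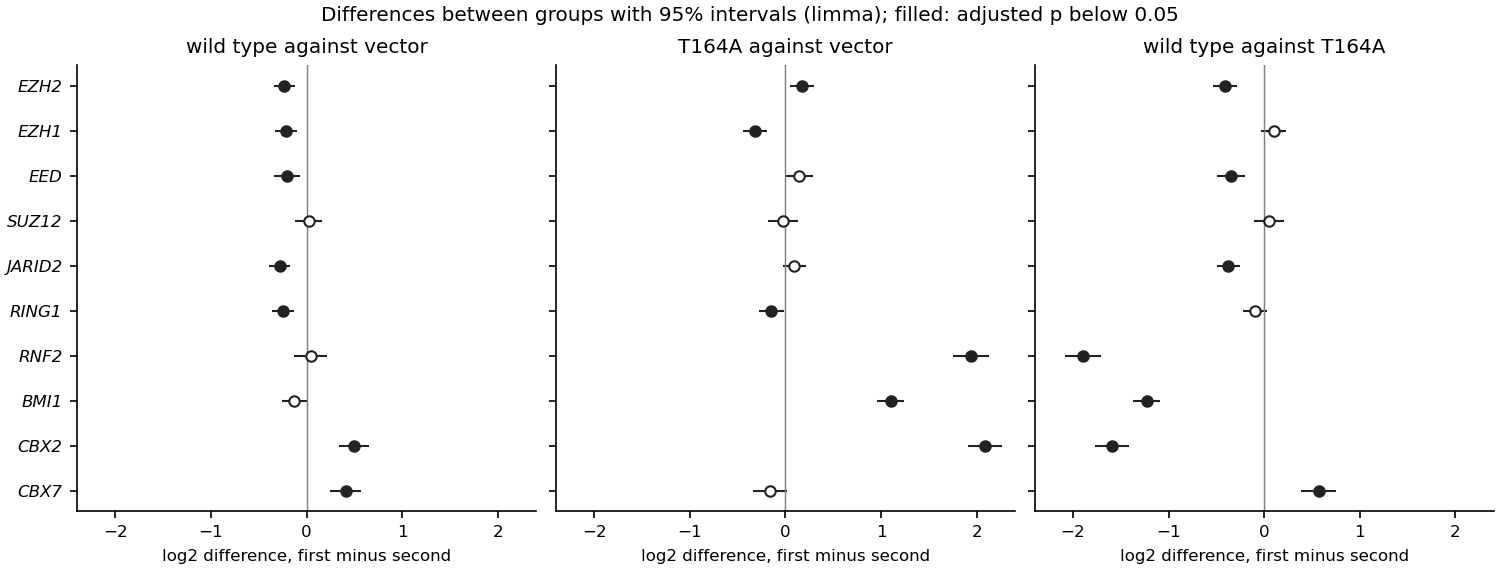
Difference between groups for each member, on the log2 scale with its 95% interval from limma; filled points had an adjusted p below 0.05. The largest are CBX2 at 2.09 and RNF2 at 1.94 in T164A against vector.

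RNF2, the ubiquitin ligase also called RING1B that carries most PRC1 activity in many cells, had the lowest vector level per kb of the members and rose strongly in T164A. The gene lies on chromosome 1 (185045364 to 185102608, GRCh38, plus strand). Its log2 value ran from 7.57 through a median of 7.76 to 7.88 in vector and from 7.65 through 7.79 to 7.95 in wild type, and was 9.55, 9.65, 9.97 and 9.60 in T164A. Vector and wild type overlapped nearly completely, and all 4 T164A libraries lay far above both. T164A was 1.94 higher than vector (SE 0.09, limma adjusted p = 6.9e-16), a 3.83-fold change. Without T164A library 93, the highest, the difference was 1.85 (limma adjusted p = 3.17e-15). Wild type minus vector was 0.04 (95% interval -0.13 to 0.21, limma adjusted p = 0.73).

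RING1, the paralogous ligase also called RING1A, was not higher in T164A. Values ran from 10.04 through a median of 10.16 to 10.31 in vector and from 9.85 through 9.94 to 10.02 in wild type, and were 10.07, 10.08, 9.87 and 10.10 in T164A. Wild type lay below the vector range, whereas T164A overlapped vector. Wild type fell by 0.24 (SE 0.06, limma adjusted p = 0.000848). T164A fell by 0.15 (SE 0.06, limma adjusted p = 0.0453), a call lost in 15 of 24 alternative settings. Wild type against T164A was -0.10 (limma adjusted p = 0.198), and -0.15 without T164A library 93 (limma adjusted p = 0.0357). RING1 occupies 6 rows of the table. The row used had a mean of 10.05 and the next highest a mean of 0.05.

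BMI1, the PCGF subunit that activates the ligase in canonical PRC1, was clearly higher in T164A. The gene lies on chromosome 10 (22321211 to 22331484, GRCh38, plus strand). It ran from 9.50 through a median of 9.60 to 9.69 in vector and from 9.31 through 9.47 to 9.66 in wild type, and was 10.63, 10.73, 10.87 and 10.61 in T164A. The T164A libraries stood about a full log2 unit above the rest. T164A was 1.10 higher than vector (SE 0.07, limma adjusted p = 2.16e-13), a 2.14-fold change, and still 1.05 higher without T164A library 93 (limma adjusted p = 1.23e-12). Wild type minus vector was -0.13 (95% interval -0.26 to 0.00, limma adjusted p = 0.0984), a difference that passed without wild-type library 13 (limma adjusted p = 0.0340). The read-through gene COMMD3-BMI1 shares exons with BMI1 in GENCODE, so their reads cannot be told apart.

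PCGF2, the paralogue of BMI1 that can take its place, also rose in T164A, by 0.82 against vector (limma adjusted p = 3.57e-08). BMI1 minus PCGF2 within a library ran from 1.51 through a median of 1.85 to 2.07 in vector, from 1.34 through 1.47 to 1.79 in wild type, and was 2.01, 2.02, 2.49 and 1.99 in T164A. The T164A range overlapped that of vector and lay above that of wild type. These differences are given without a test.

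**Figure D3:**
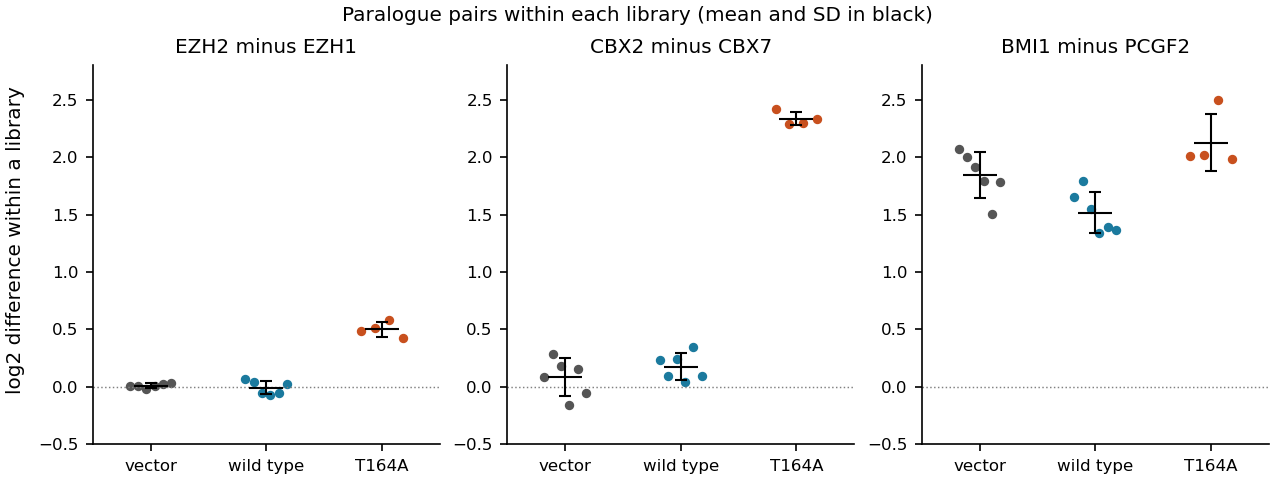
Difference between paralogues within each library (log2), by group, with mean and SD in black: EZH2 minus EZH1, CBX2 minus CBX7 and BMI1 minus PCGF2. In T164A EZH2 minus EZH1 is between 0.42 and 0.58 and CBX2 minus CBX7 between 2.29 and 2.42, above every other library.

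CBX2, a chromodomain subunit that can also compact chromatin, had the largest change of the members. The gene lies on chromosome 17 (79778132 to 79787983, GRCh38, plus strand). Its log2 value ran from 8.40 through a median of 8.49 to 8.61 in vector and from 8.69 through 9.07 to 9.15 in wild type, and was 10.67, 10.63, 10.34 and 10.74 in T164A. The 3 groups did not overlap and were ordered vector, wild type, T164A. Wild type was 0.50 higher than vector (SE 0.08, limma adjusted p = 7.63e-06), a 1.41-fold change. T164A was 2.09 higher (SE 0.09, limma adjusted p = 4.79e-17), a 4.26-fold change, and 2.17 higher without T164A library 93 (limma adjusted p = 4.79e-17). Wild type against T164A was -1.59 (SE 0.09, limma adjusted p = 1.64e-14).

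CBX7, the chromodomain subunit that prevails in many differentiated and stem cells, was higher in wild type. Its log2 value ran from 8.27 through a median of 8.42 to 8.56 in vector and from 8.59 through 8.84 to 8.99 in wild type, and was 8.25, 8.34, 8.04 and 8.41 in T164A. Wild type lay above all other libraries, by a small margin for library 14. Wild type was 0.41 higher than vector (SE 0.08, limma adjusted p = 0.000118), a 1.33-fold change, and 0.57 higher than T164A (SE 0.09, limma adjusted p = 2.95e-06). T164A minus vector was -0.16 (95% interval -0.34 to 0.02, limma adjusted p = 0.115), and it passed after quantile normalization (-0.47, limma adjusted p = 2.98e-05). AL031846.2 shares exons with CBX7 in GENCODE.

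CBX2 and CBX7 were the 2 members raised in wild type, and wild-type library 14 had the lowest value of both (8.69 and 8.59), next to its lowest luminal sum. Neither call against vector held when close libraries were averaged, with differences of 0.34 and 0.31 (limma adjusted p = 0.0951 and 0.142), and that of RING1 did not either (limma adjusted p = 0.157). In that fit wild-type library 14 stood alone and weighed as much as the average of the other wild-type libraries. Under that averaging, limma called 0 members in wild type against vector, 3 members had an unadjusted p below 0.05 (2 higher, 1 lower), and 18.9% of all symbols passed. CBX2, RNF2 and BMI1 kept their T164A calls against vector in that setting (differences of 1.98, 2.02 and 1.17, limma adjusted p = 1.31e-10, 1.58e-10 and 2.44e-08).

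CBX2 minus CBX7 within a library ran from -0.16 through a median of 0.12 to 0.29 in vector and from 0.04 through 0.16 to 0.34 in wild type. In T164A it was 2.42, 2.29, 2.30 and 2.33 (mean 2.34 ± 0.06, SD, n = 4). Library 93 was the lowest of its group for both genes. Vector and wild type overlapped, and T164A lay apart. These values are a description without a test.

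On a scale per kb of merged exon, the order of levels among members differed between vector and T164A. The log2 level per kb in vector was highest for RING1 (9.37 ± 0.10, SD, n = 6), followed by EZH2 (8.84 ± 0.11), SUZ12 (8.77 ± 0.09), EZH1 (8.23 ± 0.11), BMI1 (7.83 ± 0.07), JARID2 (7.69 ± 0.05) and EED (7.57 ± 0.10). CBX7 (6.39 ± 0.13), CBX2 (6.08 ± 0.08) and RNF2 (5.90 ± 0.12) were lowest. EZH2 and SUZ12 did not differ beyond their spread. In T164A, BMI1 reached 8.93 ± 0.12 (SD, n = 4), beside 9.01 ± 0.04 for EZH2 and 8.74 ± 0.23 for SUZ12, while CBX2 reached 8.17 ± 0.17 and RNF2 7.84 ± 0.19. EZH1 was at 7.91 ± 0.08 there. Exon lengths came from GENCODE on GRCh38, which differs from the GRCh37 build named by the submitters, so this order is approximate.

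The accessory subunits of PRC2, which steer the core complex, were tested as a list of 10. Counts for this and the next lists stand beside the called shares of symbols with a mean of 6 or more. These were 47.2% higher and 36.6% lower in T164A against vector, and 27.6% and 38.7% in wild type against vector. Not every listed gene reached that mean, and the lists were chosen with earlier results known, so the counts are descriptions. In T164A against vector 6 were higher and 2 lower, with a list median of 0.85, or 0.51 with EZHIP held at its bound against the level of 3 reads. The histone chaperones RBBP4 and RBBP7, which also serve other complexes, rose by 1.34 (limma adjusted p = 5.81e-18) and 0.96 (limma adjusted p = 2.61e-14). MTF2, a DNA-binding recruiter, rose by 0.73 (limma adjusted p = 1.25e-10) and EPOP by 1.05 (limma adjusted p = 3.95e-10). LCORL and EZHIP were the other higher genes, and PHF1 and LCOR the lower. With the wild-type construct 1 was higher than vector (LCORL, 0.45) and 3 lower, namely PHF19 (-0.65, limma adjusted p = 2.82e-09), RBBP7 (-0.21) and PHF1 (-0.27), with a list median of -0.12, or -0.06 without EZHIP, which was below the level of 3 reads in both groups. PHF1 is on several rows and its sign turned when they were averaged.

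The other canonical PRC1 genes were mostly higher in T164A. Of 9, 7 were higher than vector and 1 lower (median 0.82), beside 47.2% and 36.6% of symbols with a mean of 6 or more. CBX6 rose by 1.81 (limma adjusted p = 1.5e-15), SCML2 by 1.29 (limma adjusted p = 4.62e-13), CBX8 by 1.17 (limma adjusted p = 4.13e-10) and SCMH1 by 0.92 (limma adjusted p = 2.06e-12). Between wild type and vector, CBX6 (0.98, limma adjusted p = 1.92e-10), CBX8 (1.03, limma adjusted p = 2.94e-09) and SCMH1 (0.69, limma adjusted p = 3.8e-10) were higher and PHC2 (-0.13, limma adjusted p = 0.0495) lower, with a median of 0.04. CBX2, CBX6 and CBX8 were thus higher than vector in both engineered groups, by values that share the vector libraries.

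Variant PRC1 genes, whose complexes contain other PCGF proteins in place of BMI1, gave 12 higher and 4 lower of 19 in T164A against vector (median 0.34). Among symbols with a mean of 6 or more, 47.2% were higher and 36.6% lower. BCOR, a corepressor of the PCGF1 complex, rose by 2.28 (limma adjusted p = 6.6e-22) and its relative BCORL1 by 1.73 (limma adjusted p = 9.16e-17), with L3MBTL2 (1.26) and DCAF7 (1.28) also higher. PCGF1, PCGF3, PCGF5 and MGA were lower (-0.34, -0.38, -0.56 and -0.73). Wild type against vector gave 6 higher and 6 lower (median -0.03), near the 27.6% and 38.7% of symbols with a mean of 6 or more. Among them were PCGF1 at -0.53 (limma adjusted p = 4.49e-07), DCAF7 at 0.39, BCOR at 0.35 and RYBP at 0.40.

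Genes linked to the removal of ubiquitin from H2A, which opposes PRC1, split in direction in T164A. In T164A against vector 3 of 12 were higher and 7 lower (median -0.31), beside 47.2% and 36.6% of symbols with a mean of 6 or more. BAP1, the catalytic subunit of the main H2A deubiquitinase, was at 11.33 in T164A against 10.17 in vector (limma adjusted p = 3.41e-14), and its partner HCFC1 was 0.80 higher (limma adjusted p = 2.89e-10). ASXL3 lay below the level of 3 reads in vector and rose by at least 5.62 log2 units in T164A, while ASXL1 fell by 0.57 (limma adjusted p = 2.25e-09). Against vector, limma called 0 higher in wild type (also 0 at an unadjusted p below 0.05) and 7 lower (median -0.18), led by ASXL1 (-0.39, limma adjusted p = 6.56e-07), MBD6 (-0.45, limma adjusted p = 1.37e-06), FOXK2 (-0.17) and OGT (-0.19).

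Among 10 measured H3K27 demethylases and factors that oppose Polycomb, wild type against vector gave 5 higher and 1 lower (median 0.18). The shares of symbols with a mean of 6 or more were 27.6% and 38.7%. KDM6A, an X-linked H3K27 demethylase, rose by 1.29 (limma adjusted p = 1.21e-14), and its Y-linked relative UTY was at least 4.44 higher. UTY was below the level of 3 reads in all 6 vector and all 4 T164A libraries, and at 6.13 to 7.27 in wild type. Why it was so low in those libraries was not tested. EP300, SMARCA2 and SMARCB1 were also higher (0.38, 0.22 and 0.51) and CREBBP lower (-0.28). In T164A against vector 7 were higher and 1 lower (median 0.47), beside 47.2% and 36.6% of symbols with a mean of 6 or more. The chromatin remodelling subunits SMARCB1 and SMARCA4 rose by 2.34 (limma adjusted p = 5.27e-17) and 1.13 (limma adjusted p = 5.14e-15), the acetyltransferase EP300 by 1.18 (limma adjusted p = 3.71e-17) and SMARCA2 by 0.74. KDM6B was the lower gene (-0.23), and UTY was below the level of 3 reads in both.

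**Figure D4:**
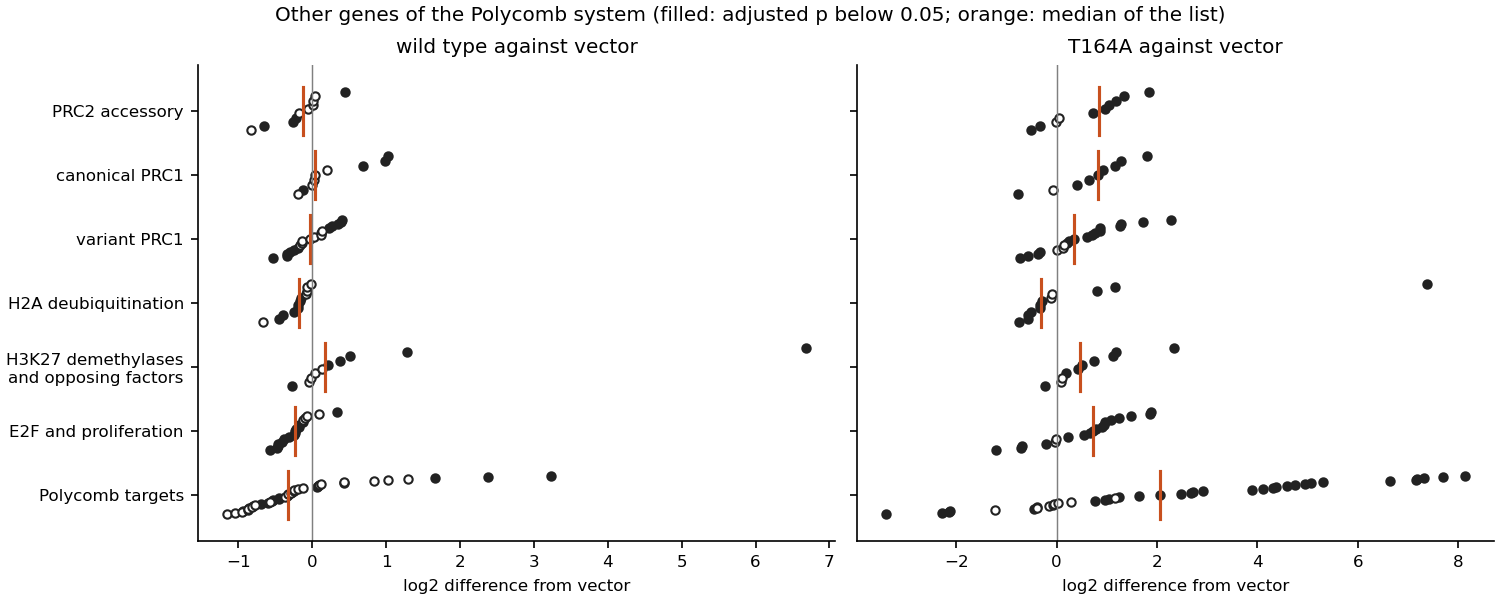
Fitted log2 difference from vector for each gene of 7 lists (points; filled with an adjusted p below 0.05) and the list median (orange), in wild type and T164A; the horizontal scales differ. Fitted differences of genes below the level of 3 reads in 1 group, such as UTY in wild type and ASXL3 in T164A, are not estimates of fold. The medians in T164A run from -0.31 for H2A deubiquitination to 2.06 for Polycomb targets.

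Many genes known as Polycomb targets in other cells were higher in T164A. Of 39, 25 were higher than vector and 6 lower, beside 37.1% and 27.2% of all symbols. By the fit, 23 were called and at least 2-fold higher, where 20.1% of all symbols were. The list was chosen with earlier results of these data known. Its genes below the level of 3 reads in vector had little room to be lower. These shares are therefore a description and not a test of Polycomb targets as a class. The list median was 2.06, or 2.27 over the 35 genes with a value when 9 genes below the level of 3 reads in vector were set to their bound. SLIT2, an axon guidance ligand, rose by 7.32 (limma adjusted p = 1.25e-20) and POU4F1, a neuronal transcription factor, by 4.11 (limma adjusted p = 6.3e-20). CDKN2B, a cell cycle inhibitor, fell by 3.39 (limma adjusted p = 1.01e-21) and CDH1, the epithelial cadherin, fell by 2.12 (limma adjusted p = 4.52e-21). The bounds of those 9 genes ran from 1.15 for OLIG1 to 6.03 for HAND1. In vector 13 targets were below that level, in wild type 14 and in T164A 4, which were SOX1, NEUROG1, NEUROD1 and TBX5, named after their values were seen.

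Relative to vector, 4 of the 39 targets were higher and 12 lower in wild type (median -0.33), beside 21.0% and 24.5% of all symbols. TBX3, a T-box factor, rose by 3.23 (limma adjusted p = 1.73e-20) and EN2 by 2.38 (limma adjusted p = 9.8e-08), with LHX2 (1.66) also higher. In vector EN2 had a mean of 2.32, close to the level of 3 reads (2.30), with 3 of 6 libraries below it. CDKN2B fell by 0.69 (limma adjusted p = 1.56e-08) and HOXD10 fell by 0.55 (limma adjusted p = 7.12e-08). Against T164A, wild type was higher for CDH1 (2.20), CDKN2B (2.71), TBX3 (1.59) and IRX3 (1.54). It was lower for 28 targets, POU4F1 (-4.35) and SLIT2 (-7.66) among them. The lower targets include NEUROG1, which was below the level of 3 reads in both groups. The neighbouring gene CDKN2A, looked at after its values were seen because BMI1 is known for its restraint, was at 10.32 in vector, 9.87 in wild type and 11.37 in T164A. It was 1.05 higher in T164A than in vector (limma adjusted p = 1.09e-12), where BMI1 was higher too, and CDKN2B was lower.

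**Figure D5:**
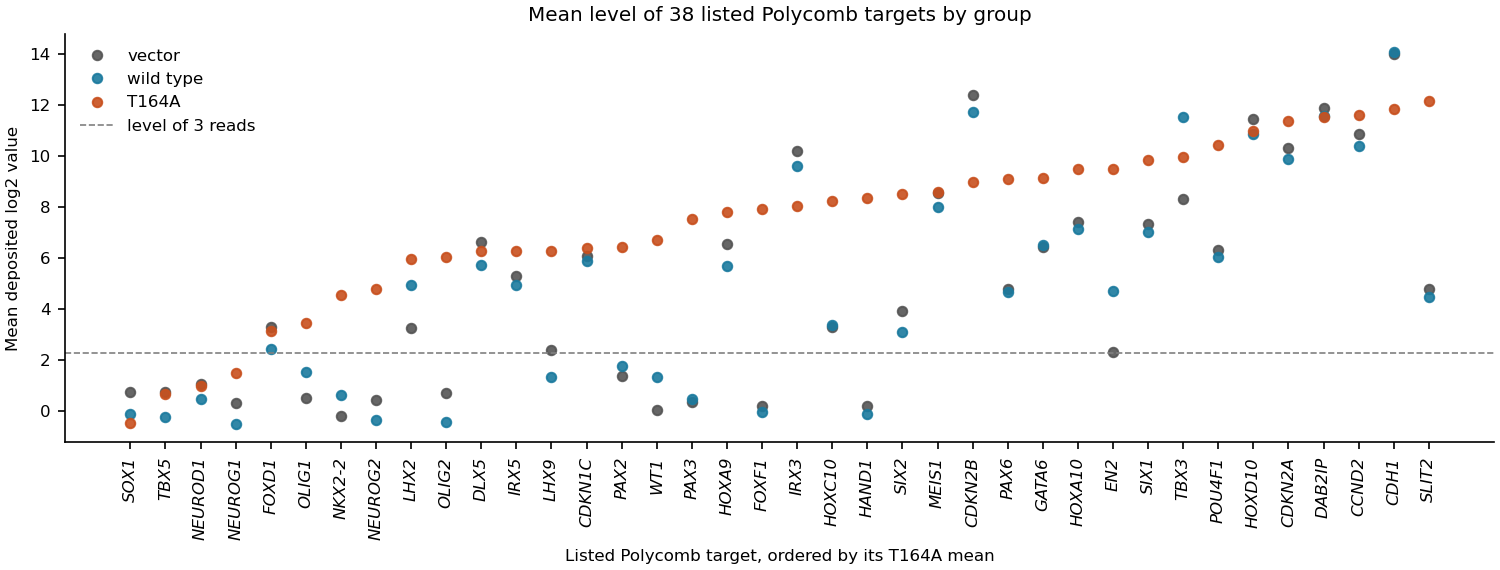
Mean deposited log2 value of 38 listed Polycomb targets in vector, wild type and T164A, ordered by the T164A mean; the dashed line is the level of 3 reads (2.30). SLIT2 and POU4F1 are far higher in T164A, and CDKN2B and CDH1 are lower.

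E2F and proliferation genes are given because EZH2 is known to follow them. Their summed level, to which abundant genes add most, was 42400 to 44689 in vector, 35380 to 39025 in wild type and 60751 to 66431 in T164A. Of 19, 1 was higher in wild type than in vector (CDK1, 0.33) and 14 were lower (median -0.24), with AURKA (-0.58, limma adjusted p = 3.53e-08), E2F1 (-0.47), RBL1 (-0.47) and PCNA (-0.38). In T164A against vector 13 were higher and 4 lower (median 0.73), beside 47.2% and 36.6% of symbols with a mean of 6 or more. The mitotic kinases BUB1 and PLK1 rose by 1.88 (limma adjusted p = 4.25e-19) and 1.86 (limma adjusted p = 1.32e-18), CCNA2 by 1.48 and the replication helicase subunit MCM5 by 1.24. E2F1, RB1, RBL1 and PCNA were lower (-1.21, -0.70, -0.69 and -0.22). The part of proliferation in the EZH2 difference was not tested.

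Set directly against each other, wild type and T164A differed across the same lists. Of symbols with a mean of 6 or more, 33.8% were higher and 46.1% lower in wild type. In wild type against T164A, PRC2 accessory genes were higher for 1 (PHF1) and lower for 7 of 10, led by RBBP4 (-1.30, limma adjusted p = 1.52e-17). Canonical PRC1 genes were lower for 6 of 9, led by SCML2 (-1.30, limma adjusted p = 6.05e-13), and variant PRC1 genes higher for 3 (PCGF3, PCGF5 and MGA) and lower for 13 of 19, with BCOR at -1.93 and AUTS2 at -1.21. H2A deubiquitination genes were higher for 4 (ASXL1, FOXK1, USP16 and MYSM1) and lower for 3 (BAP1, ASXL3 and HCFC1) of 12. Opposing factors were higher for 3 (KDM6A, KDM6B and UTY) and lower for 7 of 10, and proliferation genes higher for 3 (E2F1, RB1 and RBL1) and lower for 15 of 19. The list medians were -0.76 (-0.69 with EZHIP at its bound), -0.54, -0.48, 0.07, -0.48 and -0.98 in that order, beside -0.08 for all symbols.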

How the data were processed

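Poly-A RNA of engineered RWPE1 cells was sequenced in 16 libraries after TruSeq preparation, as the labels' protocols state. Listed in the submitters' processing notes, with no role or order, are DESeq, Cufflinks 2.0.2, TopHat2 2.0.4, CASAVA 1.8.2 and the GRCh37 build. A single table of 21594 rows was deposited, in log2 values; the transformation and the use of strand in counting are not given in the sources used here. Of its 20166 symbols, 304 stand on several rows, and the row with the highest mean was kept. Above 11.5, 2 raised to the deposited value, less an offset of 1.89, lay within 0.05 of an equal step for 100% of values, which gave the depth estimate and the level of 3 reads; the latter covers counting error only. At lower levels values carry extra scatter, so no count test was run.

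All 16 libraries entered 1 limma model (limma 3.58.1, R 4.3.3, variance trend, two-sided, no batch term), with p-values adjusted by Benjamini-Hochberg over 20166 symbols and a threshold of 0.05. The script was tested on simulated data. No library pair agreed within sampling noise (chi-square per degree of freedom 4.34 to 152). The members and lists were chosen with earlier results of these data known. Named genes are all members, per list and comparison the 4 of smallest p, and short counts spelled out. Of 195 list places 191 were measured; KMT2A, KMT2C, KMT2D and PECAM1 were not analysed here, and the gene carried by the constructs and some list genes are not reported here. Alternatives were each library left out, close libraries averaged, a minimum fold of 1.2, repeated symbols averaged, a fit without variance trend, array weights, a fit of the compared groups alone, a filter at a mean of 2 and quantile normalization. The averaged sets were vector 1 and 2, vector 3, 4 and 6, wild type 13 and 15 to 18, and T164A 91, 92 and 94. Vector 5, wild type 14 and T164A 93 stood alone, each with the weight of an average. The labels give no such sets.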

Additional observations from a re-analysis of the deposited data

Results flagged for a closer look

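Of 177 sets of libraries (59 named genes in 3 groups), 16 held a library far from the others of its group, by Dixon's gap test at the 95% level, which flags about 1 group in 20 by chance. Among the members this was RING1 in T164A library 93, at 9.87 with the nearest library at 10.07.

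Wild-type library 14 was far from its group in these genes, each time on the side of the vector mean: CBX6 at 10.44 (nearest 10.80), CBX8 at 7.92 (8.25), SCMH1 at 9.57 (9.79), RYBP at 9.31 (9.51), SMARCB1 at 9.16 (9.40) and RBL1 at 10.34 (10.09). T164A library 93 was also far in BCORL1 at 10.19 (nearest 10.45) and SMARCA4 at 12.36 (12.60). Vector library 5 was far in BCOR at 9.85 (9.93), OGT at 13.90 (14.09), BCORL1 at 8.86 (8.65) and PLK1 at 9.87 (9.67). Single cases were PHF1 in wild-type library 15 at 9.22 (9.33), L3MBTL2 in vector library 6 at 8.73 (8.64) and MCM5 in vector library 3 at 10.54 (10.71).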

How the results depend on the processing

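Of 30 member tests, 10 kept their direction and their side of the threshold in all 24 alternatives, among them BMI1, RNF2 and CBX2 between T164A and either other group. Of 150 other named gene tests, 112 did. In wild type against vector, the 7 called members became 1 with a minimum fold of 1.2 (1 higher, 0 lower; 2 and 0 at an unadjusted p below 0.05) and 0 when close libraries were averaged (0 higher, 0 lower), where fewer values entered the fit and single libraries weighed more. In T164A against vector, the 6 called members became 3 with the minimum fold. The 2 lower calls there became 0 with the minimum fold (0 unadjusted) and 1 with the compared groups alone, array weights, no variance trend, repeated symbols averaged or close libraries averaged. Leaving out each library gave 1 to 2 lower calls there, with 1 without vector library 4, 5 or 6, wild-type library 13, 16 or 17, or T164A library 91 or 92. In wild type against T164A the 1 higher call became 2 after quantile normalization and with array weights, and 1 to 2 when libraries were left out (2 without T164A library 93). Total called members ran from 7 to 8, from 5 to 7 and from 7 to 9 in the 3 comparisons when libraries were left out.

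PHF1 turned sign when its rows were averaged (0.068 for wild type and 0.086 for T164A against vector, -0.018 for wild type against T164A), and OGT in wild type against vector did so after quantile normalization (0.0060). CBX2 minus CBX7 in T164A was 2.47 after quantile normalization. The cause was not tested. Among named list genes, RBBP7, PHF1, LCORL, PHC2, RYBP, ASXL1, FOXK2, OGT, SMARCB1 and RBL1 lost their wild-type calls when close libraries were averaged. No paired analysis was possible because the groups share no replicate numbers. Depth limits the values below 2.30, where genes cannot be ranked.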
